A study of Mus musculus with 5 samples.

Results

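The miR-34 and miR-449 microRNAs (miRNAs) of mouse germ cells are described here in 5 small RNA libraries, 1 per cell type. The family was taken by name, as the miRNA entries that begin with miR-34a, miR-34b, miR-34c, miR-449a, miR-449b or miR-449c, whichever arm of the precursor they come from. The rule found 10 of 1316 miRNA entries: mmu-miR-34a-5p, mmu-miR-34a-3p, mmu-miR-34b-5p, mmu-miR-34b-3p, mmu-miR-34c-5p, mmu-miR-34c-3p, mmu-miR-449a-5p, mmu-miR-449a-3p, mmu-miR-449b and mmu-miR-449c-5p, written below without the prefix that stands for mouse. Primordial germ cells, the fetal precursors of the germ line, were taken with anti-CD15 beads from CD-1 male gonads at 13.5 days after conception. Spermatogonia, the dividing germ cells of the testis, were enriched from CD-1 testes at 8.5 days after birth by letting somatic cells settle and adhere. Spermatozoa came from the cauda epididymis and vas deferens of mature CD-1 males and were purified on a density gradient, followed by an osmotic shock meant to remove other cells. Metaphase II oocytes were collected after superovulation from C57BL/6 females of 4 to 5 weeks, 15210 cells in all. Zygotes, 15416 cells, were collected 15 to 18 hours after fertilization from C57BL/6 females of the same age that had been paired with DBA/6J males. The labels name no mutation or drug in any group, apart from the hormones given to the females for oocytes and zygotes. The 3 male libraries are CD-1 and the oocytes C57BL/6, so strain and preparation cannot be told apart from cell type in a comparison across them.

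Each miRNA guides an Argonaute protein to messenger RNAs that pair with its seed, bases 2 to 8 from its 5′ end, and lowers their output. The miR-34 and miR-449 genes share a seed and are known to act redundantly: mice that lack the miR-34b/c and miR-449 loci together have defects in spermatogenesis and in the motile cilia of airway and reproductive tract epithelium. miR-34a is known as a target gene of p53, while miR-34b/c and miR-449 are known from meiotic and haploid male germ cells and from multiciliated cells. miR-34c has also been studied as a miRNA that sperm carry into the egg.

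The sequences below are shown because the shared seed is what makes these miRNAs a family. They come from RefSeq (GRCm38.p6), which matched 8 of the 10 members, and capitals mark the seed. The 5p arms in that table carry the seed GGCAGUG. They are listed with their place, miR-34a-5p on the plus strand at chr4:150068473-150068494, miR-34b-5p on the minus strand at chr9:51103610-51103632, miR-449a-5p and miR-449c-5p on the plus strand at chr13:113037549-113037570 and chr13:113036008-113036028.
miR-34a-5p: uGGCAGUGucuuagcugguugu
miR-34b-5p: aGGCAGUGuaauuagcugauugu
miR-449a-5p: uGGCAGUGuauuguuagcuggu
miR-449c-5p: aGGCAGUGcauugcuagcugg

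No other mature miRNA of the 1679 in the table had this seed, so the 4 members made up 0.238% of it. miR-34c-5p and miR-449b are named here without a sequence, and this count does not cover them. miR-34a-5p and miR-449a-5p, from different chromosomes, were the same over their first 9 bases and at 15 of 22 positions. miR-449a-5p and miR-449c-5p, from the same cluster, had 18 positions in common when aligned from their first base without gaps.

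The 3p arms of miR-34b and miR-34c share another seed, AUCACUA, which no other entry of the table had. They are shown because the balance of 5p and 3p arms is compared below. Both lie on the minus strand, at chr9:51103574-51103595 and chr9:51103044-51103065.
miR-34b-3p: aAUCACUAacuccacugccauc
miR-34c-3p: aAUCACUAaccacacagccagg

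These 3p arms were identical over their first 10 bases and differed at 5 of 22 positions. In GENCODE vM21, on the same assembly, the precursors of miR-34b (chromosome 9, 51103562 to 51103645) and miR-34c (51103034 to 51103110) lie 451 bases apart. Both are inside an intron of Btg4, a gene of maternal RNA clearance, but on its opposite strand. The miR-449a, miR-449b and miR-449c precursors lie in introns of Cdc20b on chromosome 13 and on its strand, between 113035983 and 113037624. The miR-34a precursor (chromosome 4, 150068454 to 150068555) overlaps an exon of Gm37795 on the same strand.

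The libraries held between 1216358 miRNA reads, in spermatozoa, and 12004614, in primordial germ cells. Levels are in RPM, the reads of an entry per 1e6 miRNA reads of its library, and brackets give exact 95% intervals. Each cell type is a single library, so none of the differences has replicates or a test behind it, and the intervals cover counting error only. miRNAs made up 45.2% of the reads of the 4 deposited tables in primordial germ cells and 40.5% in spermatogonia. They made up 5.57% in spermatozoa, 4.65% in oocytes and 5.38% in zygotes, so a level among miRNAs and a level among all listed reads are different quantities. Fewer cells of a type and less RNA per cell cannot be told apart in such pooled material.

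The family was a minor part of the miRNAs everywhere but in spermatozoa, where it took 23.6% of them. It summed to 0.324% of miRNA reads in primordial germ cells [0.320 to 0.327] and to 0.101% in spermatogonia [0.0986 to 0.102], then to 23.6% in spermatozoa [23.5 to 23.7]. Oocytes had 0.835% [0.823 to 0.848] and zygotes 0.546% [0.537 to 0.556]. Of the reads of all 4 tables it took 0.146%, 0.0407%, 1.32%, 0.0388% and 0.0294% in the same order. Spermatozoa were the highest library on both scales. On the second scale primordial germ cells came next, whereas among miRNAs the oocyte did.

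miR-34c-5p dominated the family in every library. Primordial germ cells gave 38189 of its reads, spermatogonia 9317, spermatozoa 269787.5, oocytes 16373 and zygotes 12481, which is 3181, 874, 221799, 8144 and 5363 RPM. It thus ranked 43rd, 97th, 2nd, 23rd and 27th among the miRNAs of those libraries. In spermatozoa only miR-143-3p, a miRNA of smooth muscle and peritubular cells, was above it, at 230279 RPM. Its share of the family's reads was lowest in spermatogonia, at 87.0%, and highest in primordial germ cells, at 98.3%. From high to low, the RPM of miR-34c-5p stood in the order spermatozoa, oocytes, zygotes, primordial germ cells and spermatogonia. The counting intervals of neighbours in this order did not overlap, but the order turned on the scaling. Of the reads of all 4 tables, miR-34c-5p took 1.24% in spermatozoa, 0.144% in primordial germ cells and 0.0379% in oocytes. It took 0.0354% in spermatogonia and 0.0289% in zygotes, so only spermatozoa kept their place.

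**Figure D1:**
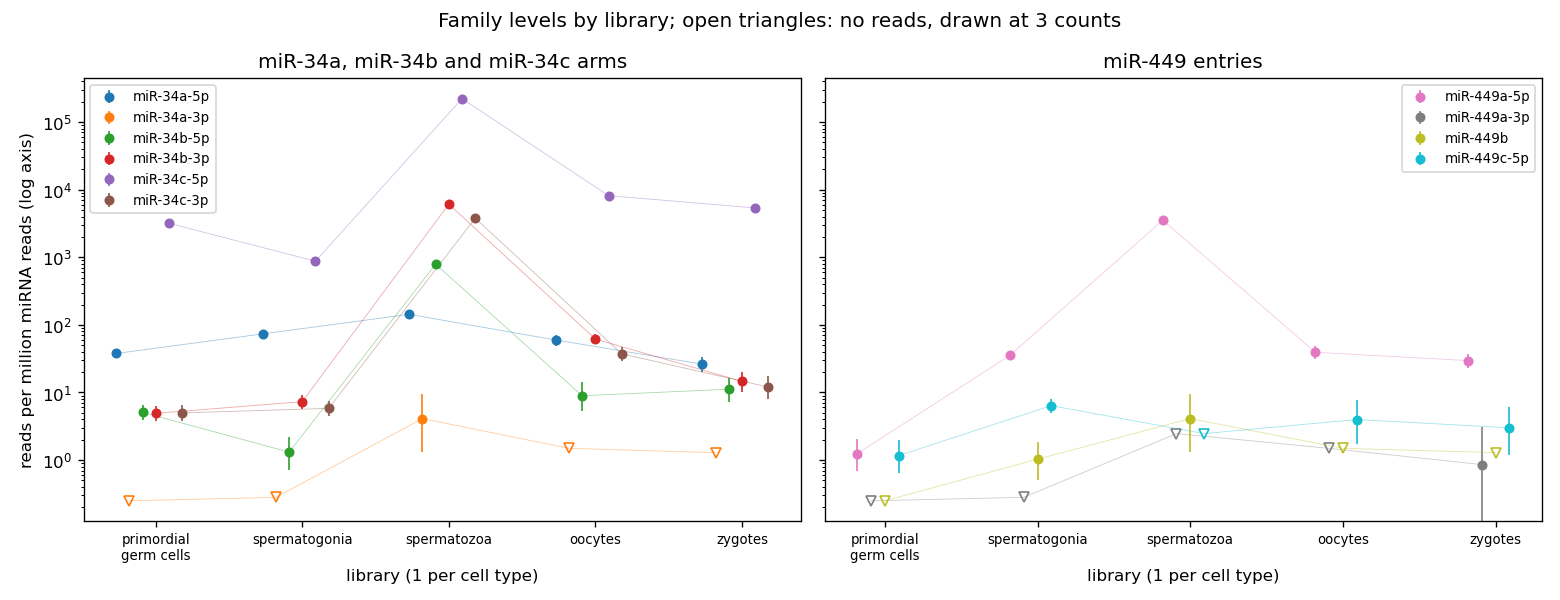
RPM (log axis) of each member in the 5 libraries, with the miR-34 arms on the left and the miR-449 entries on the right. Bars are exact 95% counting intervals and open triangles stand for 0 reads, drawn at 3 counts. miR-34b-3p, miR-34b-5p, miR-34c-3p, miR-34c-5p and miR-449a-5p peak in spermatozoa, miR-34a-5p spans 5.46-fold, and miR-449c-5p has no read in spermatozoa.

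The other arms of the miR-34b/c cluster were scarce outside spermatozoa. Primordial germ cells had 4.91 RPM of miR-34b-3p, spermatogonia 7.32, spermatozoa 6083, oocytes 61.7 and zygotes 14.6. miR-34c-3p had 5.00, 5.82, 3785, 37.3 and 12.0 RPM in the same libraries. Both arms kept the same order of libraries, and spermatozoa stood 98.6-fold and 101-fold above the next, the oocyte. miR-34b-5p was rarer still in spermatozoa, with 959.5 reads or 789 RPM. Its other levels were 1.31 RPM in spermatogonia, 5.08 in primordial germ cells, 8.95 in oocytes and 11.2 in zygotes.

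miR-449a-5p, the abundant product of the miR-449 cluster, had 15 reads in primordial germ cells, 378 in spermatogonia, then 4299 in spermatozoa, and 79 and 69 in oocytes and zygotes. Those are 1.25, 35.5, 3534, 39.3 and 29.7 RPM, so it was the member with the widest range of RPM, 2829-fold between spermatozoa and primordial germ cells. Over all 4 tables miR-34b-3p ranged wider, 431-fold between spermatozoa and zygotes, against 349-fold for miR-449a-5p. Among miRNA reads, spermatogonia, oocytes and zygotes lay close together: their intervals, 32.0 to 39.2, 31.1 to 49.0 and 23.1 to 37.5 RPM, overlapped. Of the reads of all 4 tables, miR-449a-5p took 0.00143% in spermatogonia, 0.000183% in oocytes and 0.000160% in zygotes. On that scale spermatogonia stood well above both egg libraries. miR-449c-5p did not follow it: primordial germ cells had 14 of its reads, spermatogonia 68, spermatozoa 0, oocytes 8 and zygotes 7. A count of 0 allows up to 2.47 RPM in spermatozoa, at least 2.59-fold lower than the 6.38 RPM of spermatogonia. Within a library, miR-449a-5p over miR-449c-5p was 1.07 in primordial germ cells [0.482 to 2.40], 5.56 in spermatogonia [4.28 to 7.31], 9.88 in oocytes [4.77 to 23.7] and 9.86 in zygotes [4.54 to 25.4]. In spermatozoa it was 1433 with 3 counts set for miR-449c-5p, and its exact interval starts at 1165. miR-449b had 11 reads in spermatogonia, 5 in spermatozoa and 0 elsewhere, and miR-449a-3p had 2 reads in zygotes and 0 elsewhere.

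miR-34a-5p, the p53-responsive member, varied least among the members with reads in every library. Primordial germ cells had 37.7 RPM, spermatogonia 73.6, spermatozoa 143, oocytes 59.7 and zygotes 26.2, a range of 5.46-fold. miR-34a-3p had 5 reads in spermatozoa and 0 elsewhere. Against miR-34a-5p within the same library, a ratio that no scaling of libraries changes, miR-34c-5p was 84.3-fold higher in primordial germ cells [76.8 to 92.7] and 11.9-fold in spermatogonia [11.0 to 12.8]. It was 1551-fold higher in spermatozoa [1336 to 1809], 136-fold in oocytes [114 to 165] and 205-fold in zygotes [159 to 268].

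With miR-34c-5p set aside, the make-up of the family differed between libraries. In primordial germ cells 68.4% of the remaining reads were miR-34a-5p, as were 56.2% in spermatogonia. In spermatozoa it held 0.997%, and miR-34b-3p (42.4%), miR-34c-3p (26.4%) and miR-449a-5p (24.6%) made up most of the rest. In oocytes the same 3 members held 29.2%, 17.7% and 18.6% beside 28.3% for miR-34a-5p. Zygotes had 30.4% miR-449a-5p, 26.9% miR-34a-5p, 15.0% miR-34b-3p and 12.3% miR-34c-3p. The remaining reads numbered 662, 1395, 17445.5, 424 and 227 in the order of the libraries above, so the shares of the egg libraries rest on few reads.

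**Figure D2:**
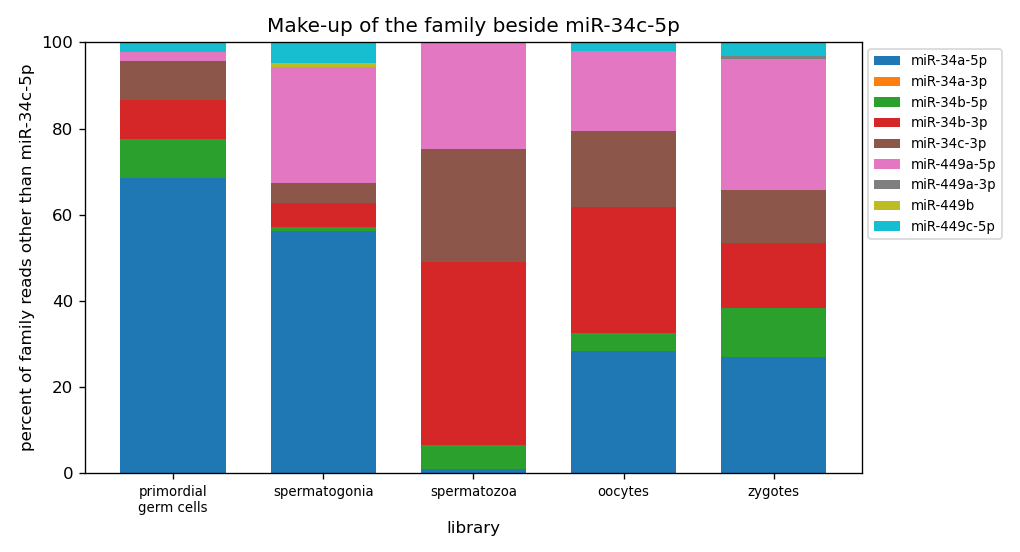
Percent of the family's reads other than miR-34c-5p held by each of the other members, in the 5 libraries. miR-34a-5p has the largest share in primordial germ cells (68.4%) and spermatogonia (56.2%), and miR-34b-3p in spermatozoa (42.4%) and oocytes (29.2%).

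In the male germ line, spermatozoa were set against spermatogonia. miR-34c-5p was 254-fold higher in spermatozoa [249 to 259], miR-34b-3p 831-fold [665 to 1053], miR-34c-3p 651-fold [507 to 850], miR-34b-5p 600.5-fold [356 to 1103] and miR-449a-5p 99.6-fold [89.7 to 111]. The members without miR-34c-5p summed to 14342 RPM in spermatozoa and 131 RPM in spermatogonia, a ratio of 109.6 [104 to 116]. A miRNA is called measured in a comparison where it has at least 100 reads over both libraries, and called apart at 4-fold or more. Among the 6 measured members, 5 lay at least 4-fold higher in spermatozoa, where 14.9% of all 471 measured miRNAs did, and 0 at least 4-fold lower, where 37.2% did. miR-34b-5p, miR-34b-3p and miR-34c-3p had under 100 reads in spermatogonia and reached the minimum through spermatozoa. With so few reads in the deeper library, miR-34b-5p and miR-34c-3p were bound to be called higher once they reached it. Their calls therefore add nothing to their ratios. The median log2 ratio was 8.58 over the measured members and -1.10 over all measured miRNAs. The member median includes those that reached the minimum through spermatozoa, so it too adds nothing to the ratios.

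miR-34a-5p differed far less, and its direction turned on the scaling. It was 1.94-fold higher in spermatozoa than in spermatogonia [1.64 to 2.29] among miRNAs, but 3.73-fold lower when reads were scaled to all 4 tables. On that scale, which shifts each log2 ratio of the comparison by -2.86, miR-34c-5p was 34.9-fold higher, miR-34b-3p 114-fold and miR-449a-5p 13.7-fold. In the deposited normalised column the ratio of miR-34c-5p was 58.1.

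Markers of other cells moved between the same libraries. The list for epithelium of epididymis and duct, with reads for 7 of 7 members in each library, summed to 23562 RPM in spermatozoa and 2033 RPM in spermatogonia, and 6 of the 7 lay at least 4-fold higher. Erythroid markers summed to 19438 RPM in spermatozoa and 2015 RPM in spermatogonia (3 of 4 higher), leukocyte markers to 3095 and 304 RPM (4 of 5 higher) and neuronal markers to 1643 and 288 RPM (4 of 4 higher). Among all 471 measured miRNAs, 14.9% lay at least 4-fold higher. These counts hold among miRNA reads, and scaling to all 4 tables shifts each log2 ratio by -2.86. On that scale only miR-141-3p, miR-144-3p and miR-142-5p of these lists stay at least 4-fold higher, from log2 ratios of 7.05, 6.06 and 6.18. The part of these markers in the result was not tested. The sums of the lists of other testis cells were level or lower in spermatozoa: smooth muscle and peritubular markers summed to 231644 RPM in spermatozoa and 233352 RPM in spermatogonia, endothelial markers to 375 and 9053 RPM, gonadal somatic markers to 103 and 14981 RPM. The level smooth muscle sum was nearly all miR-143-3p, at 230279 RPM in spermatozoa and 230893 RPM in spermatogonia. Of the 4 members of that list, 2 were at least 4-fold lower in spermatozoa and 0 higher. Embryonic and primordial germ cell markers (miR-290 cluster and miR-302) summed to 65.8 RPM in spermatozoa, with 11 of 18 entries at 0, and to 1692 RPM in spermatogonia; in primordial germ cells, the cells they mark, they summed to 42612 RPM. miRNAs known from multiciliated epithelium are themselves members of the family, so such cells and male germ cells cannot be told apart by them.

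Of other miRNAs reported from meiotic and haploid male germ cells, a list of 6, 4 were among the entries and 3 were measured between spermatozoa and spermatogonia. miR-184-3p, abundant in testis germ cells, had 8197 RPM in spermatozoa and 1624 RPM in spermatogonia. miR-18a-5p, a regulator of a heat shock factor in spermatogenesis, had 1743 RPM in spermatozoa and 148 RPM in spermatogonia. Both were at least 4-fold higher in spermatozoa among miRNAs, whereas miR-24-3p was at least 4-fold lower, with 4439 RPM in spermatozoa and 36569 RPM in spermatogonia. The log2 ratios of miR-184-3p and miR-18a-5p were 2.34 and 3.56. Scaling to all 4 tables shifts each by -2.86, so neither stays 4-fold higher there and miR-184-3p is lower in spermatozoa. miR-122-5p, known from liver and from late male germ cells, had no read in primordial germ cells, spermatogonia or spermatozoa, 3 reads in oocytes and 4 in zygotes.

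**Figure D3:**
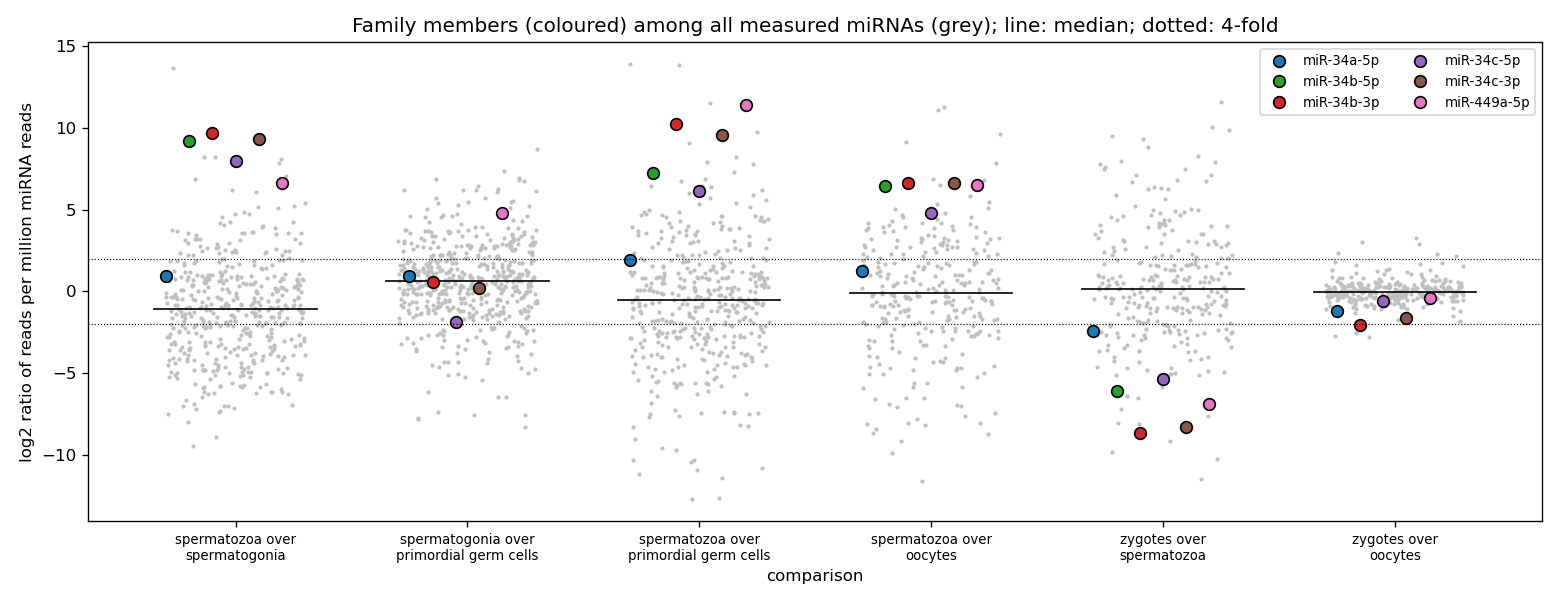
Log2 ratios of RPM for 6 comparisons, each the cell type named first over the one named second, with family members coloured and all other measured miRNAs in grey. Lines are medians over all measured miRNAs and dotted lines mark 4-fold. The members other than miR-34a-5p lie far above the median in each ratio of spermatozoa to another cell type, and all 6 lie below it in zygotes over spermatozoa.

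Between spermatogonia and primordial germ cells the members went separate ways. miR-449a-5p was 28.4-fold higher in spermatogonia [17.0 to 51.2], with 378 reads against 15. miR-34c-5p was 3.64-fold lower [3.56 to 3.72]. Its own 3p arm was near level, at 1.16-fold [0.803 to 1.69], and miR-34b-3p was 1.49-fold higher [1.05 to 2.13]. miR-34a-5p was 1.95-fold higher in spermatogonia [1.73 to 2.19]. Among the 5 measured members, 1 lay at least 4-fold higher, where 25.7% of 530 miRNAs were, and 0 at least 4-fold lower, where 12.6% were. With 15 reads in primordial germ cells, miR-449a-5p was bound to be called higher once it had enough reads to be measured.

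The call on miR-34c-5p in that comparison turned on scaling. It was 4.07-fold lower in spermatogonia over all 4 tables, and its ratio of deposited normalised values was 0.168. The small ratios of both 3p arms changed sign under edgeR's, DESeq2's and the deposited factors, which shift each log2 ratio by -0.64, -0.61 and -0.71. In spermatogonia smooth muscle and peritubular markers summed to 233352 RPM, against 9281 RPM in primordial germ cells, and endothelial markers to 9053 against 1051 RPM. Gonadal somatic markers summed to 14981 RPM in spermatogonia and 1734 RPM in primordial germ cells (2 of 2 at least 4-fold higher), and erythroid markers to 2015 and 211 RPM (3 of 3 higher). Embryonic and primordial germ cell markers went the other way, at 1692 and 42612 RPM (15 of 15 lower). Of the measured neuronal markers 2 of 4 were lower, of leukocyte markers 2 of 4 higher and of epithelial markers 1 of 7 higher. The part of these lists in the result was not tested.

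Spermatozoa were also set against primordial germ cells, where miR-449a-5p and both 3p arms differed more than against spermatogonia, and miR-34c-5p and miR-34b-5p less. Against primordial germ cells, miR-449a-5p was 2829-fold higher in spermatozoa [1713 to 5058], miR-34b-3p 1238-fold [958 to 1628], miR-34c-3p 757-fold [587 to 994], miR-34b-5p 155-fold [119.8 to 205] and miR-34c-5p 69.7-fold [69.0 to 70.5]. The least of these was thus the abundant miR-34c-5p, whose level in primordial germ cells was already 3181 RPM. Among the 6 measured members, 5 lay at least 4-fold higher, where 21.6% of 445 miRNAs did, and 0 at least 4-fold lower, where 33.3% did. miR-449a-5p, miR-34b-5p and both 3p arms had under 100 reads in primordial germ cells and passed the minimum through spermatozoa. With so few reads in the deeper library, all of these were bound to be called higher once they passed it. Their calls therefore add nothing to their ratios. miR-34a-5p was 3.79-fold higher in spermatozoa [3.16 to 4.52] among miRNAs and 2.14-fold lower over all 4 tables, a scale that shifts each log2 ratio by -3.02. There miR-34c-5p was 8.60-fold and miR-449a-5p 349-fold higher. The epithelial list summed to 23562 RPM in spermatozoa and 1508 RPM in primordial germ cells (7 of 7 measured at least 4-fold higher), and the erythroid list to 19438 and 211 RPM (4 of 4 higher). These and the next counts hold among miRNA reads. Over all 4 tables only miR-141-3p of the epithelial list stays 4-fold higher, from a log2 ratio of 5.61. Smooth muscle and peritubular markers summed to 231644 RPM in spermatozoa and 9281 RPM in primordial germ cells (3 of 3 higher), and leukocyte markers to 3095 and 588 RPM (4 of 5 higher). Embryonic and primordial germ cell markers went the other way, at 65.8 and 42612 RPM (15 of 15 lower). Of the gonadal somatic markers 1 of 2 was lower, of the endothelial markers 1 of 2 lower, and of the neuronal markers 2 of 4 higher and 1 lower. The part of these lists in the result was not tested.

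Between the gametes, spermatozoa exceeded oocytes in every measured member. The 3p arms miR-34c-3p and miR-34b-3p were 101-fold [80.8 to 129] and 98.6-fold [82.6 to 119] higher, miR-449a-5p 89.9-fold [72.0 to 114] and miR-34b-5p 88.1-fold [55.5 to 149]. These 4 lay within each other's intervals, whereas miR-34c-5p was 27.2-fold higher [26.8 to 27.7] and miR-34a-5p 2.40-fold [1.89 to 3.05]. Among the 6 measured members, 5 lay at least 4-fold higher in spermatozoa, where 26.7% of 300 miRNAs did, and 0 at least 4-fold lower, where 26.3% did. miR-34b-5p, miR-34c-3p and miR-449a-5p had under 100 reads in oocytes and passed the minimum through spermatozoa. With 18 reads in oocytes, miR-34b-5p was bound to be called higher once it passed. Scaling to all 4 tables moved these ratios little, to 32.6-fold for miR-34c-5p and 2.87-fold for miR-34a-5p. The epithelial list summed to 23562 RPM in spermatozoa and 10083 RPM in oocytes (5 of 7 measured at least 4-fold higher), and the erythroid list to 19438 and 405 RPM (3 of 4 higher). Smooth muscle and peritubular markers summed to 231644 RPM in spermatozoa and 26923 RPM in oocytes (1 of 3 higher), and leukocyte markers to 3095 and 1414 RPM (4 of 5 higher, 1 lower). Embryonic and primordial germ cell markers went the other way, at 65.8 and 5701 RPM (11 of 11 lower). Of the gonadal somatic markers 1 of 1 was lower, of the endothelial markers 1 of 2 higher and of the neuronal markers 2 of 4 higher. The part of these lists in the result was not tested.

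Zygotes were compared with both gametes. Against spermatozoa all 6 measured members were at least 4-fold lower in zygotes, where 25.6% of 308 miRNAs were, and 0 were higher, where 26.3% were. All but miR-34c-5p had under 100 reads in zygotes and passed the minimum through spermatozoa. With 26 and 28 reads in zygotes, miR-34b-5p and miR-34c-3p were bound to be called lower once they passed. miR-34b-3p was 416-fold lower [298 to 602], miR-34c-3p 315-fold [217 to 474], miR-449a-5p 119-fold [94.0 to 153], miR-34b-5p 70.6-fold [47.9 to 109], miR-34c-5p 41.4-fold [40.6 to 42.1] and miR-34a-5p 5.46-fold [4.05 to 7.43]. With edgeR's factors or the deposited factor miR-34a-5p was no longer 4-fold lower, at log2 ratios of -1.79 and -1.48. The epithelial list summed to 10033 RPM in zygotes and 23562 RPM in spermatozoa (4 of 7 measured at least 4-fold lower), and the erythroid list to 298 and 19438 RPM (4 of 4 lower). Smooth muscle and peritubular markers summed to 21335 RPM in zygotes and 231644 RPM in spermatozoa (2 of 3 lower), and leukocyte markers to 1630 and 3095 RPM (4 of 5 lower, 1 higher). Embryonic and primordial germ cell markers went the other way, at 10600 and 65.8 RPM (10 of 10 higher). Of the gonadal somatic markers 1 of 1 was higher, of the endothelial markers 1 of 2 lower and of the neuronal markers 1 of 4 lower. The part of these lists in the result was not tested.

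Against oocytes the differences of the members in zygotes were smaller than those against spermatozoa. miR-34c-5p had 5363 RPM in zygotes and 8144 RPM in oocytes, 1.52-fold lower [1.48 to 1.55]. miR-34b-3p was 4.22-fold lower in zygotes [2.87 to 6.37], with 34 reads against 124. miR-34c-3p was 3.10-fold lower [1.98 to 4.97] and miR-34a-5p 2.28-fold [1.66 to 3.15]. The interval for miR-449a-5p held no difference, at 1.33-fold lower [0.947 to 1.86], and that for miR-34b-5p, too rare to count as measured, ran from 0.658 to 2.42 around a ratio of 1.25, zygotes over oocytes. Among the 5 measured members, 1 lay at least 4-fold lower, where 1.34% of 299 miRNAs did, and 0 at least 4-fold higher, where 2.01% did. The difference in miR-34b-3p was just past 4-fold and under it with all 4 tables (3.65-fold), edgeR's factors or the deposited factor. With the deposited factor, which shifts each log2 ratio by 0.75, miR-34c-5p was higher in zygotes, at a ratio of 1.11, and miR-449a-5p too, at 1.27. Gonadal somatic markers summed to 2789 RPM in zygotes and 5723 RPM in oocytes. Embryonic and primordial germ cell markers went the other way, at 10600 and 5701 RPM, and the sums of the other marker lists differed less. No measured entry of any marker list was at least 4-fold apart. The part of these lists in the result was not tested.

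A higher level of any measured miR-34b/c or miR-449 product in zygotes than in oocytes was not seen among miRNA reads. The mix of members also separated zygotes from spermatozoa. miR-34c-5p over miR-34c-3p was 446 in zygotes [308 to 671], 218 in oocytes [174 to 278] and 58.6 in spermatozoa [56.9 to 60.3]. miR-34c-5p over miR-449a-5p was 181 in zygotes [143 to 233], 207 in oocytes [166 to 262] and 62.8 in spermatozoa [60.9 to 64.7]. On both ratios zygotes were nearer to oocytes than to spermatozoa, as they were for miR-34c-5p over miR-34a-5p (205, 136 and 1551). miR-34b-3p over miR-34b-5p went otherwise, at 1.31 in zygotes, 6.89 in oocytes and 7.71 in spermatozoa, so that oocytes were nearer to spermatozoa. How much a spermatozoon adds to a zygote was not tested.

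The balance of the arms is a ratio within a library and independent of its scaling. miR-34c-5p over miR-34c-3p was highest in primordial germ cells, at 636 [494 to 834], and was 150.3 in spermatogonia [117 to 196]. With the 3 values above, the 5p arm of miR-34c led in every library, by a factor that was least in spermatozoa. miR-34b showed the other preference: its 3p arm had 5.57 times the reads of its 5p arm in spermatogonia [3.13 to 10.7], 7.71 times in spermatozoa [7.21 to 8.25] and 6.89 times in oocytes [4.18 to 12.0]. In primordial germ cells and zygotes the arms of miR-34b were near level, at 0.967 [0.665 to 1.41] and 1.31 [0.762 to 2.27]. The miR-34b ratios rest on miR-34b-5p, whose level is uncertain because reads may be shared with miR-34c-5p. Its count equals only 0.160% of that of miR-34c-5p in primordial germ cells and 0.208% in zygotes. The part of shared reads in these ratios was not tested.

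**Figure D4:**
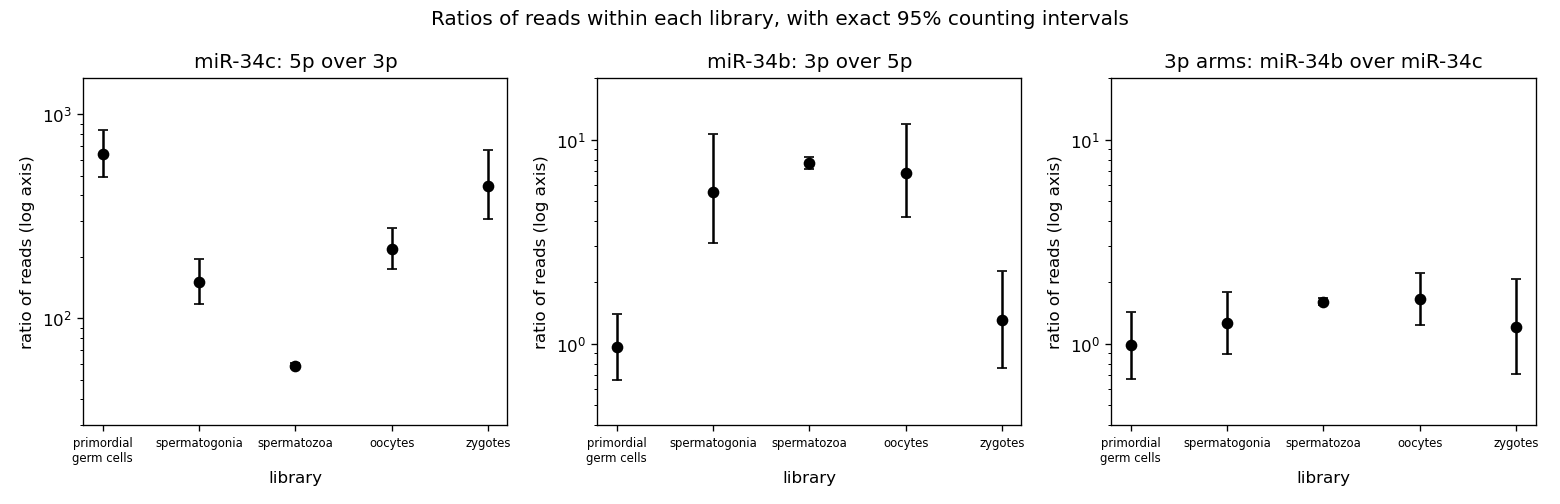
Ratios of reads within each of the 5 libraries (log axes), for miR-34c-5p over miR-34c-3p, miR-34b-3p over miR-34b-5p, and miR-34b-3p over miR-34c-3p. Bars are exact 95% counting intervals. The miR-34c ratio is highest in primordial germ cells (636) and lowest in spermatozoa (58.6), and the ratio of the 3p arms stays between 0.983 and 1.65.

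Shifts of this kind were set against all precursors with at least 10 reads on each arm in both libraries. In spermatozoa against primordial germ cells the 5p to 3p ratio shifted toward 3p by 10.8-fold for miR-34c and 7.97-fold for miR-34b, with a pseudocount of 0.5 reads, where 17.2% of 87 precursors shifted at least 4-fold toward 3p and 24.1% toward 5p. In spermatogonia against primordial germ cells the shifts were 4.23-fold and 5.60-fold toward 3p, where 17.8% of 169 precursors shifted at least 4-fold toward 3p and 11.8% toward 5p. In spermatozoa against spermatogonia the shifts were 2.54-fold and 1.42-fold toward 3p, under the 4-fold that 14% of 93 precursors passed toward 3p and 17.2% toward 5p. Against oocytes, spermatozoa shifted by 3.70-fold for miR-34c and 1.15-fold for miR-34b toward 3p, where 14.9% of 67 precursors passed 4-fold that way and 17.9% toward 5p. In zygotes against spermatozoa both shifted toward 5p, miR-34c 7.47-fold and miR-34b 5.92-fold, where 18.2% of 66 precursors passed 4-fold toward 5p and 13.6% toward 3p. In zygotes against oocytes miR-34b shifted 5.17-fold toward 5p, and it was the only 1 of 89 precursors, 1.12%, to do so by 4-fold or more, while 2.25% did so toward 3p. This rests on 26 and 34 reads of its 5p and 3p arms in zygotes and 18 and 124 in oocytes. miR-34c shifted 2.02-fold the same way. With at least 20 reads on each arm miR-34b was no longer among the precursors compared, since its 5p arm had 18 reads in oocytes. Every shift of miR-34b also rests on the uncertain count of its 5p arm, and the part of reads shared with miR-34c-5p was not tested.

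The 3p arms of the 2 neighbouring precursors, whose sequences differ at 5 positions, stayed close to each other. miR-34b-3p over miR-34c-3p was 0.983 in primordial germ cells [0.675 to 1.43], 1.26 in spermatogonia [0.890 to 1.79], 1.61 in spermatozoa [1.55 to 1.67], 1.65 in oocytes [1.23 to 2.23] and 1.21 in zygotes [0.715 to 2.08]. The 5p arms did not: miR-34b-5p made up 0.110% to 0.354% of the reads of miR-34b-5p and miR-34c-5p together. In spermatozoa both of these entries end in a fraction of 0.5 read (959.5 and 269787.5), and in spermatogonia the normalised column gives 13.5 and 9316.5 where the read column was rounded to 14 and 9317. How reads that match both entries were counted is not given in the sources used here. The whole miR-34b-5p count in spermatozoa equals 0.356% of that of miR-34c-5p, so shared reads weigh far more on miR-34b-5p, whose level is uncertain.

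Across the 5 libraries the members were also ranked by likeness to miR-34c-5p, as the Pearson correlation of log2 RPM over 5 points, a description that shares depth and scaling. Among 323 other miRNAs with at least 1000 reads in all, miR-34b-5p was the most alike (r = 0.99), then miR-34c-3p (0.96) and, after 1 miRNA outside the family, miR-34b-3p (0.96). miR-449a-5p was 25th (0.79) and miR-34a-5p 56th (0.60). The level of miR-34b-5p is uncertain, and the part of reads shared with miR-34c-5p in its r was not tested. The miRNAs outside the family most like miR-34c-5p were miR-429-3p (0.96), miR-191-5p (0.95), miR-128-3p (0.95), miR-200b-3p (0.92) and miR-200a-3p (0.92). miR-429-3p, miR-200b-3p and miR-200a-3p, of the epithelial miR-200 family, had 1799, 3820 and 3865 RPM in spermatozoa and between 69.0 and 406 RPM in the other libraries. Over the 4 libraries other than spermatozoa, r within the family was 0.96 for miR-34b-5p, 0.76 for miR-34c-3p, 0.70 for miR-34b-3p, 0.03 for miR-449a-5p and -0.48 for miR-34a-5p. Outside the family it was 0.97 for miR-200a-3p, 0.85 for miR-429-3p, 0.69 for miR-191-5p, 0.68 for miR-128-3p and 0.37 for miR-200b-3p. Of these 5 entries 1 was still among the 5 most alike.

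**Figure D5:**
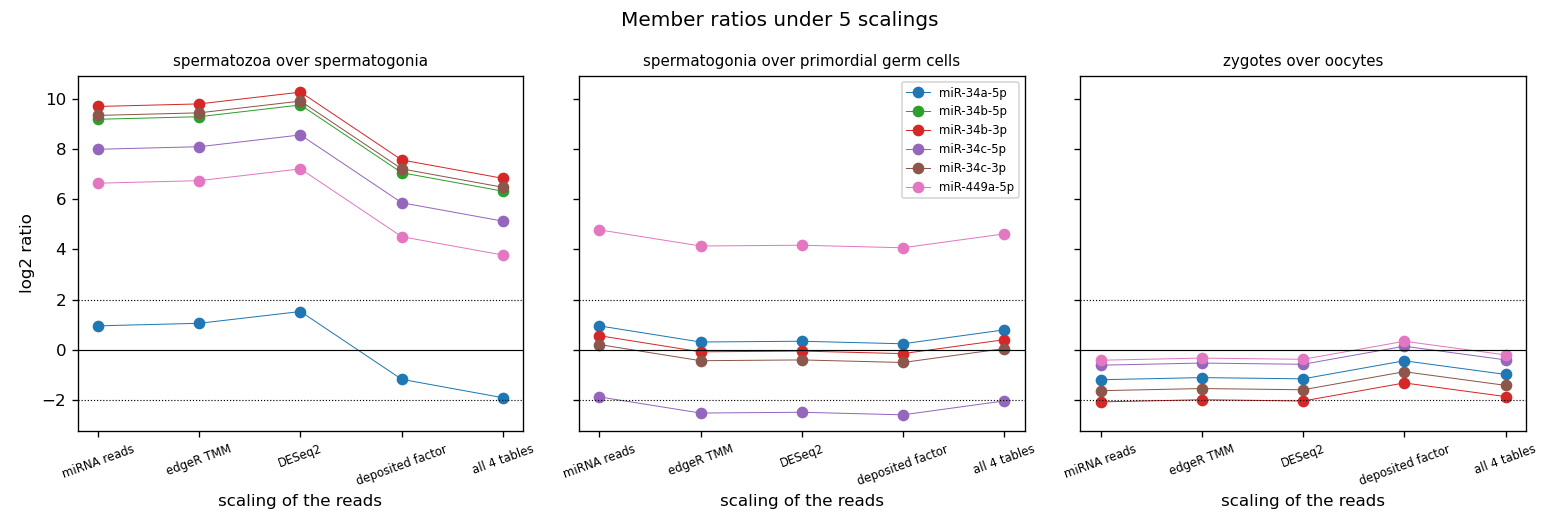
Log2 ratios of 6 members under 5 ways of scaling the reads, for spermatozoa over spermatogonia, spermatogonia over primordial germ cells, and zygotes over oocytes, where members under 100 reads in a comparison are left out. Dotted lines mark 4-fold. In the left panel every member but miR-34a-5p stays above 4-fold, while miR-34a-5p goes from 0.96 with miRNA reads to -1.90 with all 4 tables.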

How the data were processed

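Small RNAs of 18 to 32 nucleotides were sequenced, per the labels' protocols. Reads per entry were deposited by the authors as estimated counts, an expected count that need not be whole, per the file headers and values. Beside them stands a TMM column, which the deposited files make a signal: reads multiplied by a constant of the library. Read back through that constant, the spermatogonia miRNA counts are seen to have been rounded. The submitters' processing notes name Bowtie 0.12.7, DESeq and the build mm10 without saying what each did. How reads matching several entries were counted is not given in the sources used here.

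From the reads, RPM, ratios and exact intervals (Clopper-Pearson, and 2 Poisson counts conditional on their sum, on rounded reads) were computed with scipy 1.17.1. Log2 ratios used a pseudocount of 0.5 reads. Reads without molecular identifiers are not independent molecules. A count of 0 was bounded by 3 counts per library. The total of all 4 tables leaves out 6 snoRNA names that name no single snoRNA, 0.551% to 4.59% of snoRNA reads. Alternatives were edgeR 4.0.16 TMM factors, DESeq2 1.42.0 size factors, the deposited factor, other totals, minimums and pseudocounts. The ratio code was tested on simulated data. The members, lists and comparisons were chosen with earlier results of these data known. The arm minimum, the rebuilt spermatogonia reads and the correlation over 4 libraries were chosen after seeing the data. Named were all members, the 5 entries most like miR-34c-5p and members of the fixed lists.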

Additional observations from a re-analysis of the deposited data

How the results depend on the processing

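No paired analysis was possible because each cell type has 1 library, and no library could be left out of a comparison. Of the counts of members at least 4-fold apart, 96 recomputed counts stayed within 1.5 times of the value reported and 16 moved, all by 1 or 2 members. In spermatozoa against spermatogonia 1 member, miR-449c-5p, counted as 4-fold lower with a minimum of 20 reads or of 1 read, through the pseudocount: it has 0 reads in spermatozoa. With 3 counts set there it is 2.59-fold lower, and its exact interval starts at 2.05-fold. In spermatogonia against primordial germ cells 1 member (miR-34c-5p) became at least 4-fold lower over all 4 tables, with edgeR's or DESeq2's factors, with the deposited factor or with the top 5 entries of every library left out of the totals, and 2 and 3 members were higher with a minimum of 20 reads and 1 read. A minimum of 1 read also made 1 member lower in spermatozoa against oocytes, 1 higher in zygotes against spermatozoa and 1 higher in zygotes against oocytes, each with 0 reads in 1 of its libraries, so that these calls too rest on the pseudocount. In zygotes against oocytes the count of lower members was 0 over all 4 tables, with edgeR's factors, with the deposited factor and with a pseudocount of 5 reads. No ratio of a called member changed sign. Over all measured miRNAs the split in spermatozoa against spermatogonia was 70 higher and 175 lower, 18 and 358 over all 4 tables, and 25 and 312 with the deposited factor. In spermatozoa against primordial germ cells it was 96 and 148, 28 and 314 over all 4 tables, and 31 and 303 with the deposited factor. In spermatogonia against primordial germ cells it was 136 and 67, and 98 and 98 with the deposited factor. In zygotes against oocytes it was 6 and 4, and 16 and 1 with the deposited factor. Rebuilding the spermatogonia reads moved no call. The 5 entries most like miR-34c-5p were the same with a pseudocount of 5 reads, and 3 of them were among the 5 over all 4 tables. By rank correlation 2 of them were among the first 5, with 11 entries at 0.9 or above. Depth limits miR-34b-5p, miR-449b, miR-449c-5p and the 3p arms of miR-34a and miR-449a, with at most 68 reads in any library but spermatozoa.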

Other observations

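Other miRNAs known to respond to p53, a list of 5, are given beside the family. Between spermatozoa and spermatogonia 1 of the 5 was at least 4-fold higher and 2 were at least 4-fold lower, where 14.9% and 37.2% of all measured miRNAs were. The higher one was miR-192-5p, with 3806 RPM in spermatozoa and 694 RPM in spermatogonia. Its log2 ratio was 2.46, and scaling to all 4 tables, a shift of -2.86, makes it lower in spermatozoa. The lower ones were miR-215-5p, with 0 reads in spermatozoa and 552 in spermatogonia, and miR-145a-5p, also a smooth muscle marker, with 459 RPM in spermatozoa and 2149 RPM in spermatogonia. miR-194-5p had 979 RPM in spermatozoa and 326 RPM in spermatogonia, and miR-107-3p had 265 RPM in spermatozoa and 812 RPM in spermatogonia. In spermatogonia against primordial germ cells 2 of 5 were at least 4-fold higher, where 25.7% were, and 0 lower, where 12.6% were. In spermatozoa against primordial germ cells 3 of 4 measured were at least 4-fold higher, where 21.6% of all measured miRNAs were. Their log2 ratios were 3.06, 2.98 and 3.97, and the shift of -3.02 over all 4 tables leaves none of them 4-fold higher. In spermatozoa against oocytes 2 of 4 were at least 4-fold higher, where 26.7% were. In zygotes against spermatozoa 3 of 5 were at least 4-fold lower, where 25.6% were, and 1 was higher, where 26.3% were. Between zygotes and oocytes 1 of the 5 was at least 4-fold higher, where 2.01% were: miR-215-5p, with 128 RPM in zygotes and 25.4 RPM in oocytes. miR-34a-5p had 26.2 RPM in zygotes and 59.7 RPM in oocytes.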
